A study of Danio rerio with 6 samples.

Results

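The p53 pathway and growth arrest genes described here are 8 genes, *mdm2*, *cdkn1a*, *ccng1*, *gadd45aa*, *baxa*, *phlda3*, *tp53inp1* and *sesn1*, out of 25281 genes in the tables. They were taken by gene name. Of these genes, 7 were found under their own name, and *baxa* was found as 2 neighbouring rows with a numbered suffix, so that 9 rows stand for the 8 genes. RNA-sequencing was done on dissected zebrafish livers of *Tg*(*fabp10a:pt-β-catenin*) larvae, with 3 libraries from DMSO-treated and 3 from GW7647-treated larvae. DMSO is the vehicle. GW7647, a PPARα agonist, was given at 1 μM for 2 days, from 13 to 15 days post-fertilization (dpf), and livers of many larvae were pooled in each library.

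All 6 libraries, the DMSO-treated ones included, carry the same transgene, in which the hepatocyte promoter of *fabp10a* drives a stable form of *Xenopus* β-catenin. The study describes senescence and apoptosis of hepatocytes in this line, followed by the appearance of liver progenitor cells (LPCs) derived from biliary epithelial cells (BECs) and surviving hepatocytes. The comparison of GW7647- with DMSO-treated livers is therefore one within the transgenic line, and no livers without the transgene were compared here. The promoter is active in hepatocytes and not in BECs, and the livers were not sorted into cell types.

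The p53 protein is a transcription factor that is held at a low level by Mdm2, an E3 ubiquitin ligase that marks it for destruction. DNA damage, oncogene activity and other stresses stabilize p53, which then switches on genes that stop the cell cycle, start apoptosis, limit growth signals or repair DNA, and *mdm2* itself, which closes a feedback loop. In mammalian liver the pathway is known for its part in hepatocyte senescence and in restraining proliferation after injury. The roles given below are known mainly from mammals.

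Exon reads per library ranged from 19961881 to 25224356, and 96.3% to 96.8% of them mapped to 1 place. Counts were divided by library size and TMM factors and are given as CPM, the usual per-library scale for counts, and 3 reads, taken as the limit of detection, were 0.127 to 0.163 CPM. A gene was called changed when edgeR gave a fold change of at least 1.5 and a Benjamini-Hochberg adjusted p of at most 0.05 over the 15705 genes tested. The PPARα targets *cpt1ab* and *pdk4* were higher in all 3 GW7647-treated libraries, with log2 fold changes of 2.39 ± 0.15 and 1.46 ± 0.13 (SE, n = 3 against 3; edgeR adjusted p = 6.1e-05 and 3.5e-04), and *angptl4* rose by 3.50 ± 0.48 (edgeR adjusted p = 0.0038). Summed hepatocyte markers were at 25897 to 27082 CPM in DMSO-treated and 34896 to 41786 CPM in GW7647-treated livers, with 5 of 10 called higher. One of the 10 went the other way without overlap, *fabp10a*, whose promoter drives the transgene, at 2386 ± 147 against 1862 ± 129 CPM (SD, n = 3; log2 fold change -0.36, edgeR adjusted p = 0.0496). Summed BEC/LPC markers were at 12095 to 13585 and 10639 to 11188 CPM, with 2 of 7 called lower. Stellate markers (73.4 to 92.5 against 47.6 to 51.8 CPM, 2 of 3 tested called lower) and neutrophil markers (9.05 to 10.9 against 4.37 to 6.0 CPM, 1 of 3 called lower) were also lower. Intestine markers were higher without overlap, at 19.8 to 49.1 against 71.7 to 98.6 CPM, with 0 of 2 tested called. Most of that sum came from *fabp2*, at 37.5 ± 16.0 against 79.9 ± 15.4 CPM (SD, n = 3, edgeR adjusted p = 0.056). DMSO replicate 2 stood apart by exocrine pancreas markers, 48.3 CPM against 5.55 to 12.5 CPM in the other 5 libraries, and by muscle markers, 22.2 against 1.36 to 5.77 CPM. In these bulk livers, fewer cells of a type and less RNA per cell cannot be told apart, and the part of cell makeup in the values below was not tested. The study describes the 3 libraries of a group as independent samples, each a pool of livers, so p-values measure the spread between pools and not between larvae.

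None of the 8 p53 pathway genes was called changed in the fit without a replicate block. Of the 8 rows tested, 0 were called higher and 0 lower by edgeR, where 3.39% of all 15705 tested genes were called higher and 2.62% lower, 6.02% in both directions together. DESeq2 called 0 in each direction as well. With the replicate number as a block, 2 of the 8, *phlda3* and *sesn1*, were called lower. That fit called 699 of all 15705 tested genes lower, where the fit without the block called 412. An unadjusted p under 0.05 was reached by 3 of the 8, *phlda3*, *sesn1* and *tp53inp1*, against 25.1% of all tested genes. The median log2 fold change of the 8 was -0.02, beside -0.01 over all tested genes, with 4 values above and 4 below 0. The groups did not overlap for 1 of the 8, *tp53inp1*, which was higher in GW7647-treated livers, where 15.7% of all tested genes were higher without overlap and 15.3% lower, 31.0% in both directions together.

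**Figure D1:**
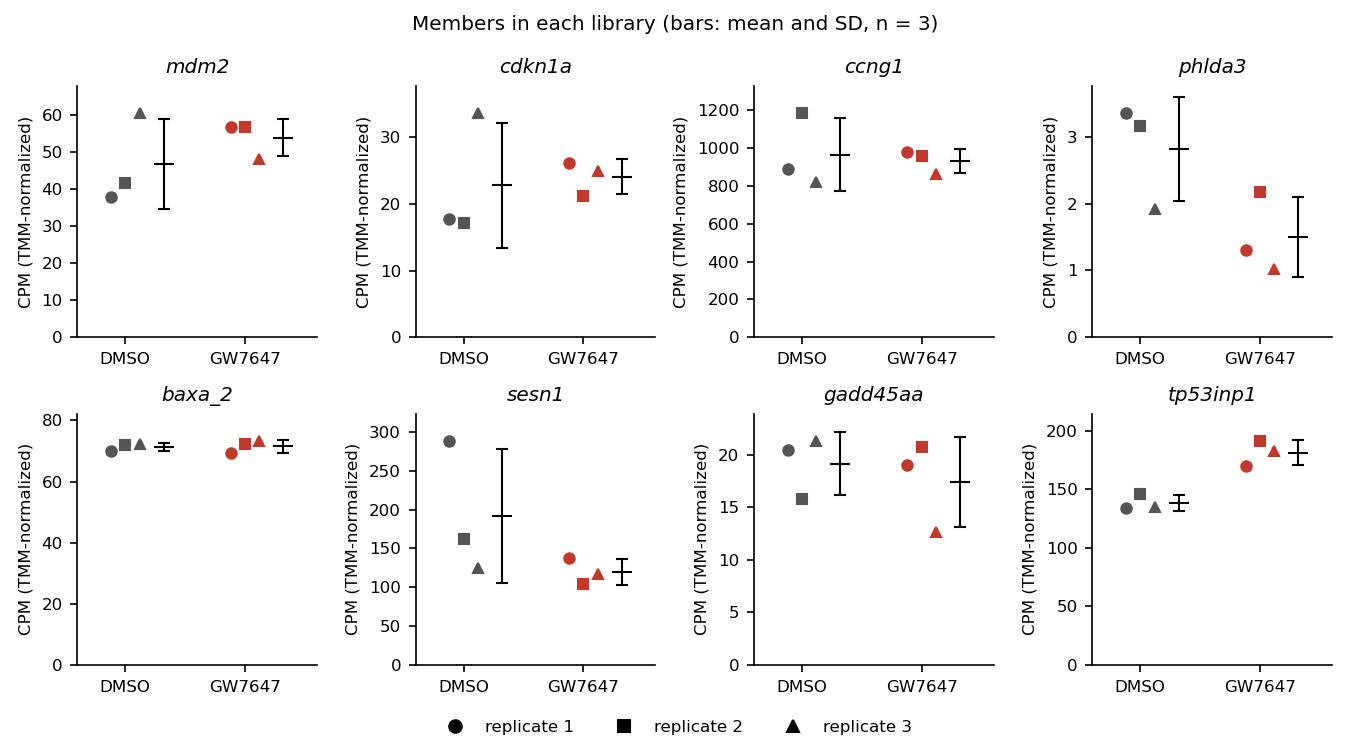
TMM-normalized CPM of the 8 tested p53 pathway genes in each library (points; marker shape gives the replicate number), with the mean and SD of each group of 3 (bars), each vertical axis starting at 0. Only *tp53inp1* shows groups that do not overlap, 134 to 146 CPM in DMSO-treated against 170 to 192 CPM in GW7647-treated livers.

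Per unit of exon length, the 8 genes covered a wide range of levels. This length was 1 value per gene, whatever its number of transcripts (5 for *mdm2* and 1 for the second *baxa* row). How well it fits the transcripts present, and so the order of the genes below, was not tested. The deposited TPM (transcripts scaled to a fixed total), which allows genes to be compared with each other, was highest for *ccng1*, at 799 ± 107 in DMSO-treated and 682 ± 36.8 in GW7647-treated livers (SD, n = 3), rank 206 of 25281 genes by mean TPM. Next came *tp53inp1*, at 162 ± 3.02 and 187 ± 14.3 TPM, rank 645. Both lay outside the range of every other member in each group.

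Below them, *sesn1* was at 71.9 ± 34.4 and 39.2 ± 4.80 TPM, and the second *baxa* row at 67.1 ± 4.01 and 59.1 ± 2.87 TPM. In DMSO-treated livers *sesn1* (48.3 to 111 TPM) spanned the range of *baxa* (62.7 to 70.6 TPM), so these neighbours could not be ordered, whereas in GW7647-treated livers *sesn1* (34.5 to 44.1 TPM) lay below *baxa* (55.9 to 61.4 TPM). The next 3 genes lay close together. The level of *cdkn1a* was 35.2 ± 15.9 and 32.2 ± 3.24 TPM, that of *gadd45aa* 28.7 ± 6.07 and 22.7 ± 5.43 TPM, and that of *mdm2* 24.3 ± 7.20 and 24.5 ± 1.98 TPM. Their ranges overlapped in DMSO-treated livers, and in GW7647-treated livers only *cdkn1a* (28.5 to 34.2 TPM) lay above the other 2. The lowest tested member was *phlda3*, at 3.51 ± 0.935 and 1.65 ± 0.673 TPM, rank 11440.

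The regulator of p53 comes first. *mdm2* (ENSDARG00000033443, chromosome 4, 23125689 to 23136195 on the plus strand as deposited, 17 exons and 5 transcripts) was at 37.8, 41.6 and 60.5 CPM in DMSO replicates 1, 2 and 3 and at 56.7, 56.6 and 48.2 CPM in GW7647 replicates 1, 2 and 3. The groups overlapped because DMSO replicate 3 was the highest of all 6 libraries, while the other 2 DMSO libraries lay below every GW7647 library. The means were 46.6 ± 12.1 and 53.8 ± 4.93 CPM (SD, n = 3), and the log2 fold change was 0.21 (SE 0.17, 95% interval -0.18 to 0.59, edgeR adjusted p = 0.49). Without DMSO replicate 3 the log2 fold change was 0.44 (edgeR adjusted p = 0.068). As this was the highest library, leaving it out had to raise the value. With any other library left out the log2 fold change was 0.08 to 0.29 (edgeR adjusted p = 0.44 to 0.83), and with no scaling factor it was -0.02.

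Reads in introns of *mdm2* were lower on average in GW7647-treated livers, while the mean of its exon reads was higher with an interval spanning 0. There were 46, 47 and 53 intron reads in the DMSO libraries and 37, 17 and 20 in the GW7647 libraries, which is 2.15 ± 0.155 against 1.23 ± 0.678 CPM (SD, n = 3). GW7647 replicate 1 lay at the lower edge of the DMSO range and the other 2 GW7647 libraries well below it. These are few reads, and no test was run on them. Over all genes, intron reads made up 3.39% to 3.73% of gene reads in the DMSO libraries. In the GW7647 libraries they made up 2.78% to 3.53%, with the lowest share in replicate 2. The share of all genes with such a drop was not counted, so it is not shown to be particular to *mdm2*.

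Among the arrest genes, *cdkn1a* encodes p21, an inhibitor of cyclin-dependent kinases and the best known p53 target in cell cycle arrest. It (ENSDARG00000076554, chromosome 22, 603382 to 607812, minus strand) was at 17.7, 17.1 and 33.6 CPM in DMSO replicates 1, 2 and 3 and at 26.1, 21.1 and 25 CPM in GW7647 replicates 1, 2 and 3. As for *mdm2*, DMSO replicate 3 was the highest of the 6 libraries and the other 2 DMSO libraries were the lowest. The means were 22.8 ± 9.40 and 24.1 ± 2.61 CPM, with a log2 fold change of 0.08 (SE 0.24, 95% interval -0.47 to 0.63, edgeR adjusted p = 0.88). The direction was not fixed by these data. The log2 fold change was 0.47 without DMSO replicate 3 (edgeR adjusted p = 0.072), where leaving out the highest library had to raise it. It was -0.07 and -0.09 when DMSO replicate 1 or 2 was left out, and -0.15 with no scaling factor. With any GW7647 library left out it was 0.02 to 0.17.

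*ccng1* encodes cyclin G1, a p53 target that takes part in the feedback on p53 through Mdm2. It was the most abundant of the 8 genes (ENSDARG00000076667, chromosome 14, 22129096 to 22140213, plus strand), with 891, 1187 and 820 CPM in DMSO replicates 1, 2 and 3 and 978, 960 and 862 CPM in GW7647 replicates 1, 2 and 3. The DMSO libraries spanned the whole range of the GW7647 libraries. The log2 fold change was -0.05 (SE 0.14, 95% interval -0.37 to 0.27, edgeR adjusted p = 0.87), and it was 0.13 without DMSO replicate 2.

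*gadd45aa* belongs to the Gadd45 family of stress proteins, which bind Pcna and act on stress kinases. Its levels (ENSDARG00000043581, chromosome 2, 10280645 to 10284572, plus strand) were 20.4, 15.7 and 21.3 CPM in DMSO replicates 1, 2 and 3 and 19.0, 20.7 and 12.6 CPM in GW7647 replicates 1, 2 and 3. The lowest value was in GW7647 replicate 3, and the groups overlapped. The log2 fold change was -0.14 (SE 0.19, 95% interval -0.57 to 0.29, edgeR adjusted p = 0.71), and 0.06 without GW7647 replicate 3.

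Of the genes tied to cell death, *baxa* encodes Bax, which opens the outer mitochondrial membrane in apoptosis. The second row (*baxa_2*, ENSDARG00000020623, chromosome 3, 37776489 to 37785873, minus strand) was the steadiest of the 8, at 70.0, 71.9 and 72.2 CPM in DMSO replicates 1, 2 and 3 and at 69.2, 72.1 and 73.4 CPM in GW7647 replicates 1, 2 and 3. The log2 fold change was 0.00 with a narrow interval (SE 0.08, 95% interval -0.18 to 0.19, edgeR adjusted p = 0.98), and -0.22 without a scaling factor, close to the median of all genes on that scale. The first row (*baxa_1*, ENSDARG00000089129, chromosome 3, 37766473 to 37773800, minus strand) had few reads, at 0.298 ± 0.181 and 0.171 ± 0.144 CPM (SD, n = 3), and did not pass the filter.

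*phlda3* encodes a small protein with a pleckstrin homology domain that competes with Akt for membrane lipids and so restrains Akt signalling. It (ENSDARG00000037804, chromosome 23, 5756442 to 5759242, minus strand) was at 3.36, 3.17 and 1.92 CPM in DMSO replicates 1, 2 and 3 and at 1.30, 2.18 and 1.02 CPM in GW7647 replicates 1, 2 and 3, from 24 to 74 reads per library. The groups overlapped through DMSO replicate 3, which lay below GW7647 replicate 2. The means were 2.82 ± 0.780 and 1.5 ± 0.605 CPM, and the log2 fold change was -0.91 (SE 0.33, 95% interval -1.66 to -0.16, edgeR adjusted p = 0.13). With the replicate number as a block the same log2 fold change of -0.91 passed the thresholds (edgeR adjusted p = 0.029), as did -1.13 without a scaling factor (adjusted p = 0.044) and limma on log2(TPM + 1), with a difference of -0.78 on that scale (adjusted p = 0.048).

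*tp53inp1* encodes a stress-induced protein that promotes p53 activity and autophagy. It (ENSDARG00000028017, chromosome 16, 40560622 to 40569769, plus strand) was at 134, 146 and 135 CPM in DMSO replicates 1, 2 and 3 and at 170, 192 and 183 CPM in GW7647 replicates 1, 2 and 3. Every GW7647 library was above every DMSO library. The means were 138 ± 6.58 and 181 ± 11.0 CPM, and the log2 fold change was 0.39 (SE 0.09, 95% interval 0.18 to 0.60, edgeR adjusted p = 0.033). The adjusted p passed, as it did for 9.06% of all tested genes, while the fold change stayed under 1.5. It depended on the scaling, with 0.17 (edgeR adjusted p = 0.23) without a scaling factor, 0.34 (adjusted p = 0.064) with upper-quartile factors and 0.18 (limma adjusted p = 0.19) on log2(RPKM + 1). With any one library left out the log2 fold change was 0.35 to 0.44 and the edgeR adjusted p 0.050 to 0.12, at most 0.05 only without DMSO replicate 2.

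The median log2 fold change of all tested genes moved to -0.23 without a scaling factor, to -0.15 on log2(TPM + 1) and to -0.14 on log2(RPKM + 1), so values of a member on these scales are to be read against those medians. On the deposited TPM scale itself, 4 of the 8 members were lower in GW7647-treated livers without overlap, where 31.1% of all tested genes were, and 1 was higher, where 5.79% were (36.9% in both directions together). The 4 were *ccng1* (711 to 918 against 640 to 707 TPM), *baxa* (62.7 to 70.6 against 55.9 to 61.4 TPM), *sesn1* (48.3 to 111 against 34.5 to 44.1 TPM) and *phlda3* (2.50 to 4.35 against 1.14 to 2.41 TPM), and the groups of all 4 overlapped in TMM-normalized CPM. The higher one was *tp53inp1*. Intron reads of *tp53inp1* numbered 240, 207 and 138 in the DMSO libraries and 271, 208 and 215 in the GW7647 libraries, and in CPM the groups overlapped (8.64 ± 2.52 against 11.3 ± 3.0, SD, n = 3).

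*sesn1* encodes a sestrin, a stress-induced protein that restrains mTORC1 signalling. It (ENSDARG00000020693, chromosome 20, 32152355 to 32231157, plus strand) was at 289, 162 and 124 CPM in DMSO replicates 1, 2 and 3 and at 138, 105 and 118 CPM in GW7647 replicates 1, 2 and 3. DMSO replicate 1 was far above the rest, and DMSO replicate 3 lay within the GW7647 range. The means were 192 ± 86.1 and 120 ± 16.6 CPM, and the log2 fold change was -0.68 (SE 0.27, 95% interval -1.29 to -0.07, edgeR adjusted p = 0.16). Without DMSO replicate 1 it was -0.25 (edgeR adjusted p = 0.37). With the replicate number as a block it was -0.60 and passed the thresholds (edgeR adjusted p = 0.030), and it also passed without a scaling factor, at -0.90 (adjusted p = 0.046).

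**Figure D2:**
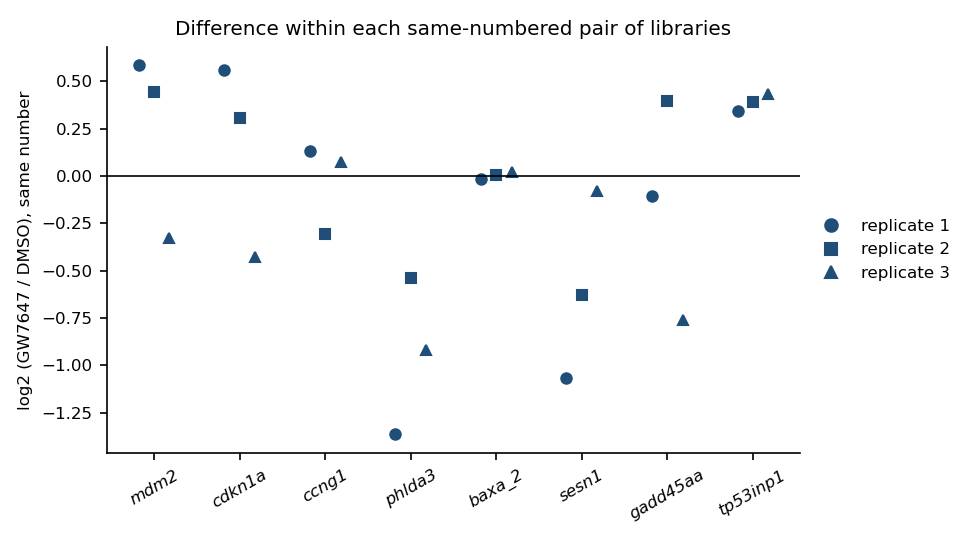
Difference in log2 CPM between the GW7647 and the DMSO library of the same replicate number (vertical axis) for each of the 8 tested genes; marker shape gives the number. The 3 points of *tp53inp1* (0.34, 0.39 and 0.44), *phlda3* (-1.37, -0.54 and -0.92) and *sesn1* (-1.07, -0.63 and -0.08) lie on 1 side of 0, and those of *mdm2* and *cdkn1a* do not.

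The 3 same-numbered differences lay on 1 side of 0 for *tp53inp1*, *phlda3* and *sesn1*, as they did for 53.1% of all tested genes. For *tp53inp1* they were close together, at 0.34, 0.39 and 0.44 in log2 CPM. For *sesn1* they ran from -1.07 in pair 1 to -0.08 in pair 3. For *mdm2* (0.58, 0.45 and -0.33) and *cdkn1a* (0.56, 0.31 and -0.43), the pairs numbered 1 and 2 were positive and the pair numbered 3 was negative in both.

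Only 50.0% to 55.4% of the exon reads of *sesn1* mapped to 1 place, against 100% for the other members. The *sesn1* locus is also overlapped by 2 genes annotated on the opposite strand, *armc2* and *si:ch211-51a19.5*, and whether the counting used strand is not given in the sources used here. The level of *sesn1* in any of the 3 kinds of read is therefore uncertain. Uniquely mapped reads were at 148, 88.2 and 66.2 CPM in DMSO replicates 1, 2 and 3 and at 68.9, 58.0 and 62.1 in GW7647 replicates 1, 2 and 3. Reads spanning exon junctions were at 104, 62.4 and 46.5 against 49.8, 40.9 and 43.7 CPM. DMSO replicate 1 was the highest library in each kind of read, and the log2 fold change was -0.68 from unique reads (edgeR adjusted p = 0.13) and -0.69 from junction reads (edgeR adjusted p = 0.12).

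**Figure D3:**
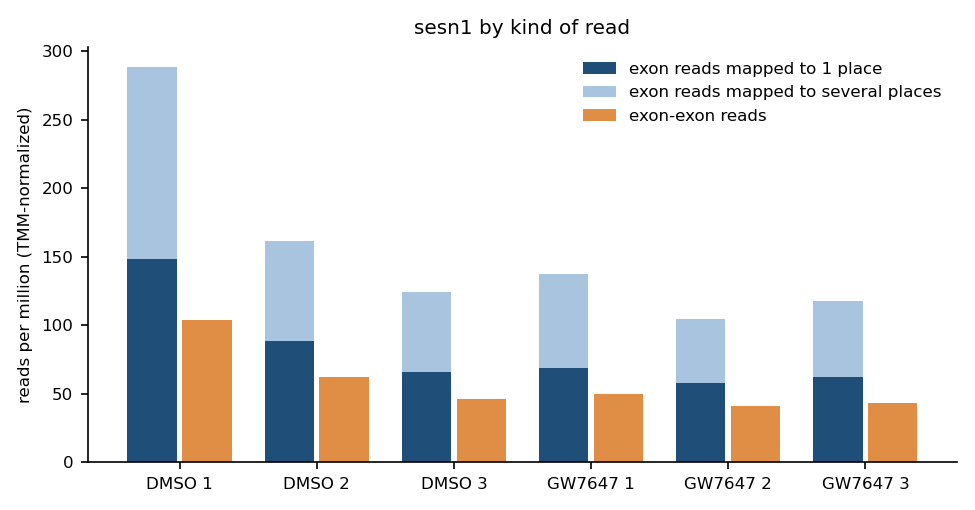
Reads of *sesn1* in CPM (TMM-normalized) in each library, as stacked bars of exon reads mapped to 1 place and to several places, with exon-exon reads beside them. DMSO 1 is highest in all 3 kinds of read (148, 140 and 104 CPM), and the other 5 libraries lie between 58.0 and 88.2, 46.6 and 73.7, and 40.9 and 62.4.

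DMSO replicate 3 set the overlap of the groups for *cdkn1a* and *mdm2*. Its *cdkn1a* level was 1.94 times and its *mdm2* level 1.52 times the mean of the other DMSO libraries, while *phlda3* and *sesn1* were at 0.589 and 0.552 times. It was the highest DMSO library for 4 of the 8 members and for 14 of the 19 proliferation genes, against 32.5% of all tested genes. The 6 tested genes of the Mcm helicase, *mcm2* to *mcm7*, which unwinds DNA for replication, were at 1.64 to 1.98 times the mean of the other DMSO libraries. The *mcm* genes were chosen after their values were seen. As all 6 were highest among the DMSO libraries in this one, leaving it out had to raise their log2 fold changes. Without this library *mcm2* and *mcm4* were called higher in GW7647-treated livers, with log2 fold changes of 0.67 and 0.68 in place of 0.26 and 0.33 (both edgeR adjusted p = 0.022). The other 4, *mcm3*, *mcm5*, *mcm6* and *mcm7*, were at 0.48 to 0.72 and were not called (edgeR adjusted p = 0.057 to 0.092). *ccnd1* was called lower, at -0.73 (edgeR adjusted p = 0.044). Of all 15940 genes tested without this library, 484 were called higher and 310 lower.

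Genes were also ranked by how closely their log2 CPM over the 6 libraries, centred on the mean, followed that of *mdm2* or *cdkn1a*. The closest to *mdm2* were *si:dkeyp-35e5.5*, *znf407* and *atxn2l*, with root mean square differences of 0.053, 0.067 and 0.084 in log2 CPM. The closest to *cdkn1a* were *tbc1d31*, *dnmt3bb.2* and *pole*, at 0.078, 0.094 and 0.11. *dnmt3bb.2* encodes a DNA methyltransferase and *pole* the catalytic subunit of a replicative DNA polymerase. None of these 6 genes is on the p53 lists used here. They were picked as the closest of 15705 tested genes over only 6 libraries, where close profiles can arise by selection alone. A link of any of them to *mdm2* or *cdkn1a* was not tested.

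Paralogs of the 8 genes were read next. A paralog of *phlda3*, *phlda2*, was the only one called changed. Of 18 listed paralogs, 17 were found and 15 tested, with 0 called higher and 1 lower by edgeR, and by DESeq2 likewise. Over all tested genes, edgeR called 3.39% higher and 2.62% lower. At an unadjusted p under 0.05 there were 7 (46.7%, against 25.1% of all tested genes), and the median log2 fold change was -0.19. *phlda2* encodes another small pleckstrin homology protein, known in mammals as an imprinted gene that limits placental growth. It was at 66.8, 73.9 and 81.4 CPM in DMSO replicates 1, 2 and 3 and at 18.4, 19.5 and 24.6 CPM in GW7647 replicates 1, 2 and 3. The groups lay far apart, and the log2 fold change was -1.83 (SE 0.13, 95% interval -2.13 to -1.53, edgeR adjusted p = 1.2e-04). It was the largest change among the members and their tested paralogs.

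*baxb*, the paralog of *baxa*, was at 18, 21.8 and 17.4 CPM in DMSO replicates 1, 2 and 3 and at 13.8, 12.8 and 13.0 CPM in GW7647 replicates 1, 2 and 3. All GW7647 libraries were lower, and the log2 fold change of -0.53 (SE 0.12, edgeR adjusted p = 0.025) passed the adjusted p but stayed under 1.5-fold. It passed both thresholds, at -0.59, without DMSO replicate 3 or with upper-quartile factors, and at -0.75 without a scaling factor (edgeR adjusted p = 0.0046). With limma on log2(TPM + 1) and log2(RPKM + 1) it passed as well, at -0.68 in both (limma adjusted p = 0.0075 and 0.0071). The median of all tested genes was -0.23 without a scaling factor and -0.15 and -0.14 on the limma scales. The edgeR adjusted p of *baxb* was 0.055 to 0.090 without any one of DMSO replicate 2 and the GW7647 replicates. The sestrin paralogs did not pass, with *sesn3* at 12.9 ± 1.41 against 18.5 ± 2.93 CPM (log2 fold change 0.52, edgeR adjusted p = 0.055) and *sesn2* at -0.19. Without GW7647 replicate 3, *sesn3* was called higher.

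Of the cyclin-dependent kinase inhibitors related to *cdkn1a*, *cdkn1ca* was at 0.763 ± 0.166 against 0.317 ± 0.0389 CPM (log2 fold change -1.25, edgeR adjusted p = 0.060). It had only 5 to 22 reads per library, and it was called lower without a scaling factor (-1.46, edgeR adjusted p = 0.025). The log2 fold changes of *cdkn1cb*, *cdkn1ba* and *cdkn1bb* were -0.82, -0.28 and -0.02, and none passed. In the Gadd45 family, *gadd45bb* was at 8.19, 7.74 and 9.83 CPM in DMSO replicates 1, 2 and 3 and at 3.42, 2.66 and 8.15 CPM in GW7647 replicates 1, 2 and 3. GW7647 replicate 3 lay within the DMSO range, and the log2 fold change was -0.84 (edgeR adjusted p = 0.18). With the replicate number as a block it was -0.95 and passed (edgeR adjusted p = 0.021), and without GW7647 replicate 3 it was -1.5 (edgeR adjusted p = 0.0086). The most abundant paralog in CPM, *gadd45ga*, was higher without overlap but did not pass, at 352 ± 26.2 against 399 ± 28.8 CPM (log2 fold change 0.18, edgeR adjusted p = 0.31).

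The remaining tested paralogs did not pass. *gadd45ab* was at -0.27 in log2 fold change, and at -0.53 (edgeR adjusted p = 0.049) without DMSO replicate 1. The log2 fold changes were 0.12 for *gadd45ba*, 0.03 for *mdm4*, 0.00 for *ccng2* and 0.08 for *tp53inp2*. *phlda1* had too few reads to be tested, *gadd45gb.1* was at 0 reads in all 6 libraries, which allows up to 0.127 to 0.163 CPM depending on the library, and *cdkn1d* was not matched.

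**Figure D4:**
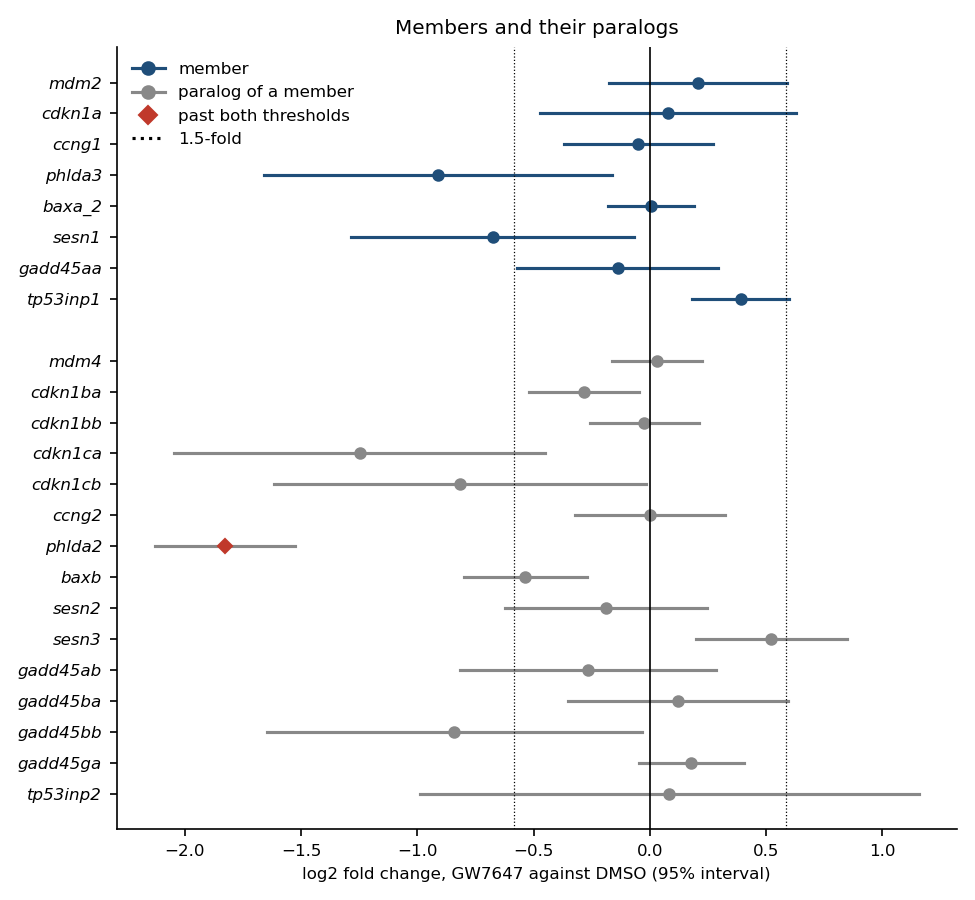
Log2 fold change of GW7647- against DMSO-treated livers with its 95% interval for the 8 tested members (blue) and their 15 tested paralogs (grey); dotted lines mark 1.5-fold, and a diamond marks a gene past both thresholds. *phlda2*, at -1.83, is the only diamond.

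Genes that control p53, among them its kinases, ligases and phosphatases, did not pass in either direction. Of 14 listed, 13 were tested, with 0 called by edgeR, 0 by DESeq2 and 0 at an unadjusted p under 0.05. Of all tested genes, 6.02% were called by edgeR and 25.1% had an unadjusted p under 0.05. The median log2 fold change was 0.01. The smallest p was that of *ppm1db*, at 2.44 ± 0.20 against 1.85 ± 0.181 CPM (log2 fold change -0.40, SE 0.20, edgeR adjusted p = 0.25). It is a zebrafish counterpart of the mammalian phosphatase gene *PPM1D*, which switches off p53 signalling.

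The wider set of growth arrest targets had calls in both directions. Of 10 listed, 8 were tested, with 1 called higher and 1 lower and a median log2 fold change of -0.01. Over all tested genes, 3.39% were called higher and 2.62% lower. An unadjusted p under 0.05 was reached by 5 of the 8 (62.5%, against 25.1% of all tested genes). The edgeR adjusted p was at most 0.05 for 4 of the 8, where 9.06% of all tested genes passed. *tob1b*, a member of the Tob/Btg family of antiproliferative proteins, was at 314, 439 and 407 CPM in DMSO replicates 1, 2 and 3 and at 504, 676 and 652 CPM in GW7647 replicates 1, 2 and 3. All GW7647 libraries were higher (log2 fold change 0.66, SE 0.15, edgeR adjusted p = 0.032). The call was lost without a scaling factor (0.44, adjusted p = 0.077), where the median of all tested genes was -0.23. It was also lost on log2(TPM + 1) and log2(RPKM + 1), and without any one of DMSO replicates 1 and 3 and GW7647 replicates 2 and 3. *plk2a*, a polo-like kinase gene, was at 36.1, 30.5 and 28.0 CPM in DMSO replicates 1, 2 and 3 and at 13.6, 19.0 and 21.3 CPM in GW7647 replicates 1, 2 and 3. It fell in all 3 GW7647 libraries (log2 fold change -0.80, SE 0.17, edgeR adjusted p = 0.021), and the adjusted p was 0.052, 0.057 and 0.062 without DMSO replicate 1, DMSO replicate 2 and GW7647 replicate 2.

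Their relatives on the list, named after their values were seen, were mixed, with 2 past the adjusted p at under 1.5-fold. *tob1a* was at 166 ± 5.96 against 237 ± 12.2 CPM (log2 fold change 0.51, edgeR adjusted p = 0.011) and *plk3* at 28.5 ± 5.54 against 19.7 ± 0.325 CPM (-0.53, edgeR adjusted p = 0.048). The others did not pass, with log2 fold changes of 0.05 for *plk2b*, 0.34 for *btg1* and -0.06 for *btg2* (edgeR adjusted p = 0.89, 0.14 and 0.95).

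The apoptosis list, in which *baxb* is counted as well, had 20 of 21 genes tested and a median log2 fold change of 0.04. Of these values, 12 were above and 8 below 0. The list was not split into genes that promote and genes that block apoptosis, so its median and counts give no direction for apoptosis. By edgeR 0 were called higher and 1 lower, against 3.39% and 2.62% of all tested genes. DESeq2 called the same numbers. An unadjusted p under 0.05 was reached by 6 (30%, against 25.1% of all tested genes). *fas*, which encodes a death receptor, was at 5.25, 4.53 and 5.33 CPM in DMSO replicates 1, 2 and 3 and at 2.23, 2.66 and 3.22 CPM in GW7647 replicates 1, 2 and 3. It was lower in every GW7647 library (log2 fold change -0.89, SE 0.19, edgeR adjusted p = 0.022), and the adjusted p was 0.058 to 0.075 without any one of DMSO replicates 1 and 3 and GW7647 replicates 1 and 2. Neutrophil markers, which were also lower in GW7647-treated livers (9.05 to 10.9 against 4.37 to 6.0 CPM, 1 of 3 called, none at 0), moved with it. So did stellate markers (73.4 to 92.5 against 47.6 to 51.8 CPM, 2 of 3 tested called lower). Summed BEC/LPC markers were lower as well (12095 to 13585 against 10639 to 11188 CPM, 2 of 7 called lower). The part of any of these cell types in the level of *fas* was not tested.

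Of the metabolic, repair and stress targets, 14 of 15 were tested. By edgeR 0 were called higher and 1 lower, against 3.39% and 2.62% of all tested genes. DESeq2 called the same numbers, and the median log2 fold change was 0.17. An unadjusted p under 0.05 was reached by 4 (28.6%, against 25.1% of all tested genes). *dram1*, which encodes a lysosomal membrane protein that promotes autophagy, was at 7.46, 7.49 and 5.90 CPM in DMSO replicates 1, 2 and 3 and at 4.78, 3.92 and 4.45 CPM in GW7647 replicates 1, 2 and 3. It was lower in every GW7647 library (log2 fold change -0.66, SE 0.16, edgeR adjusted p = 0.039). With 1 library left out, the call held only when that library was DMSO replicate 3. *dram1* was also not called from unique exon reads. *gls2b*, a liver-type glutaminase gene picked after its values were seen, was at 94.3 ± 13.1 against 141 ± 5.32 CPM. Its log2 fold change of 0.58 (edgeR adjusted p = 0.016) stayed just under 1.5-fold and passed with the replicate number as a block (0.59). It was also called higher with at least 1 read in any library, without DMSO replicate 2 and without GW7647 replicate 1. Summed hepatocyte markers were also higher in GW7647-treated livers (34896 to 41786 against 25897 to 27082 CPM, 5 of 10 called higher, *fabp10a* lower without overlap, none at 0), and their part in the level of *gls2b* was not tested.

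Over the 5 wider lists together, 68 of 76 genes were tested, with 1 called higher and 4 lower, 30.9% at an unadjusted p under 0.05 and a median log2 fold change of 0.02. For all tested genes, 3.39% were called higher and 2.62% lower, 25.1% had an unadjusted p under 0.05, and the median was -0.01.

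**Figure D5:**
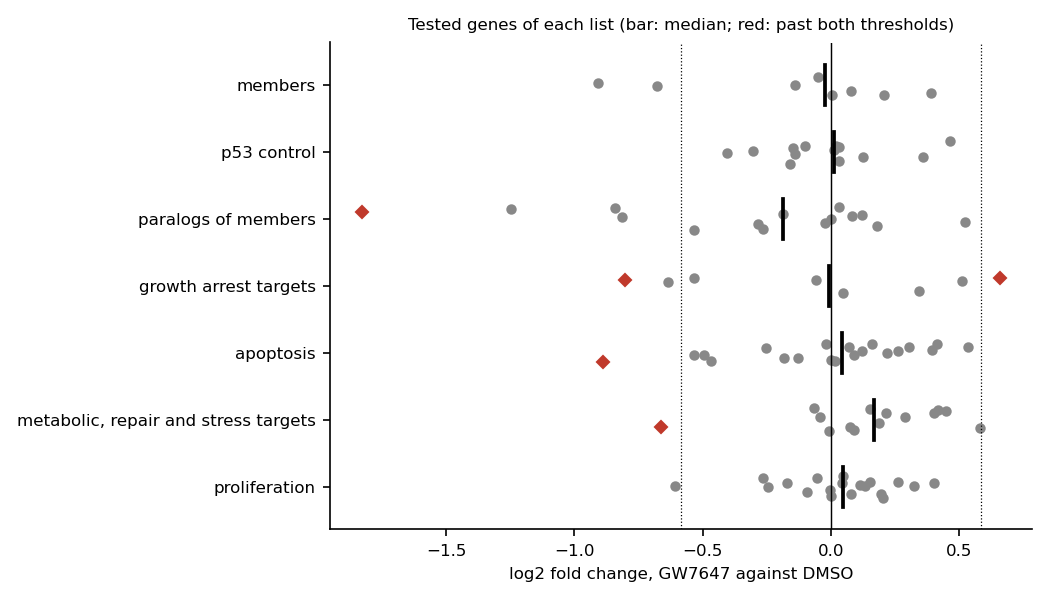
Log2 fold change of each tested gene (points) in the 8 members, the 5 wider p53 lists and the proliferation list, with the median as a bar, dotted lines at 1.5-fold and diamonds for genes past both thresholds. The medians lie between -0.19 for the paralogs and 0.17 for the metabolic, repair and stress targets, and the members and the lists of p53 control and proliferation hold no diamond.

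Proliferation genes were read beside the arrest genes. Of 19 tested, 0 were called by edgeR in either direction, against 6.02% of all tested genes, and the median log2 fold change was 0.05. An unadjusted p under 0.05 was reached by 1 (5.26%, against 25.1% of all tested genes). That gene, *ccnd1*, encodes cyclin D1, which drives entry into the cell cycle, and it was at 164, 111 and 103 CPM in DMSO replicates 1, 2 and 3 and at 82.7, 78.1 and 87.0 CPM in GW7647 replicates 1, 2 and 3. All GW7647 libraries were lower (log2 fold change -0.61, SE 0.17, edgeR adjusted p = 0.054). Of 17 alternatives 9 called it lower, among them DESeq2, upper-quartile factors, no scaling factor, both other filters and limma on log2(TPM + 1) and log2(RPKM + 1). The median of all tested genes was -0.23 without a scaling factor and -0.15 and -0.14 on the limma scales. *ccnd1* was not called from unique or gene reads, nor without any one of DMSO replicates 1 and 2 and the GW7647 replicates (edgeR adjusted p = 0.071 to 0.16). Without DMSO replicate 1, its highest library, the log2 fold change was -0.37. With the replicate number as a block it was -0.58, under 1.5-fold (edgeR adjusted p = 0.014). The proliferation genes summed to 698, 763 and 991 CPM in DMSO replicates 1, 2 and 3 and to 675, 869 and 955 CPM in GW7647 replicates 1, 2 and 3, so the groups overlapped.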

How the data were processed

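Dissected livers of DMSO- and GW7647-treated larvae were sequenced as poly(A) RNA from both ends. The authors mapped reads in CLC Genomics Workbench (version and build not given in the sources used here) and deposited, for each gene, the count of exon reads without normalization, beside unique, gene, intron and exon-exon read counts. The deposited TPM and RPKM were made by the authors from these reads by length and library total. The deposited fraction columns, made by the same software, give shares of unique and intron reads and were not tested. Positions are printed as deposited.

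Counts were tested with edgeR 4.0.16 (R 4.3.3; TMM, filterByExpr with a minimum count of 10, quasi-likelihood, two-sided, no covariate), with Benjamini-Hochberg adjustment over all 15705 tested genes; the scripts were tested on simulated data. Standard errors and 95% intervals came from the F statistic. The call thresholds are those of the study. Members and lists were chosen with earlier results of these data known. By rule, all members and paralogs are named, with up to 3 called genes per direction of each other list (or its smallest p). The 3 profiles nearest to *mdm2* and *cdkn1a* and 3 PPARα targets are named as well. Exceptions are marked, and *fabp10a*, *fabp2* and the *mcm* genes were also chosen after their values were seen.

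A possible pairing of the libraries by replicate number was checked from their deviations of log2 CPM from the group means. The correlation was 0.324, 0.201 and 0.161 for same-numbered libraries and -0.239 to 0.0754 for the others, so the number was used as a block in an alternative. The labels do not say what a number shares. The other alternatives were DESeq2 1.42.0, upper-quartile and no scaling, 2 filters, each library left out, unique, gene and (chosen after seeing the data) exon-exon reads, limma 3.58.1 on log2(TPM + 1) and log2(RPKM + 1), and other thresholds. No sequence is printed.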

Additional observations from a re-analysis of the deposited data

How the results depend on the processing

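Of the 8 members, 0 were called higher in every alternative with a fold minimum, and 1 (*tp53inp1*) with no fold minimum. The number called lower was 2 without a scaling factor, 1 with limma on log2(TPM + 1) and 0 with any library left out. With the replicate block it was 2 (*phlda3* and *sesn1*), and the block also raised the genes of the wider p53 lists called higher from 1 to 2 and all genes called lower from 412 to 699. For the wider lists, the number called higher was 0 without scaling, 0 on TPM, 0 on RPKM, 2 with at least 1 read in any library, 3 with no fold minimum, 0 at an adjusted p of 0.01, and 0 to 2 with each library left out. The number called lower was 8 without scaling, 6 with upper-quartile factors, 6 on TPM, 6 on RPKM, 6 with no fold minimum, 1 at 0.01, and 1 to 4 with each library left out (2 without DMSO replicate 1, DMSO replicate 2 or GW7647 replicate 1, and 1 without GW7647 replicate 2). Over all genes, 533 were called higher, and 321 without scaling, 293 on TPM, 255 on RPKM, 864 with no fold minimum and 292 at 0.01. All genes called lower numbered 1511 without scaling, 762 on TPM, 81 at 0.01 and 189 to 340 with each library left out (189 without DMSO replicate 2, and 225, 194 and 261 without GW7647 replicates 1, 2 and 3). No called value of a named gene changed direction. The cause of these differences was not tested. Depth limits *phlda3*, which had 24 to 74 reads per library, and the paralog *cdkn1ca*, which had 5 to 22.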

Other observations

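A growth arrest target and 2 Gadd45 paralogs, picked after their values were seen, differed more between replicate numbers than between the group means. Same-numbered libraries also deviated together over all tested genes (correlation 0.324, 0.201 and 0.161). The share of all genes with this pattern was not counted, so it is not shown to be particular to these 3. *btg2*, an antiproliferative gene of the Tob/Btg family and a known p53 target in mammals, was at 38.1, 90.8 and 97.6 CPM in DMSO replicates 1, 2 and 3 and at 38.4, 62.7 and 116 CPM in GW7647 replicates 1, 2 and 3. The libraries numbered 1 were the lowest of both groups, and the log2 fold change was -0.06 (SE 0.42, edgeR adjusted p = 0.95). *gadd45ba* was at 84.0, 112 and 144 CPM in the DMSO libraries and at 100.3, 115 and 154 CPM in the GW7647 libraries, again with the libraries numbered 1 lowest and those numbered 3 highest. *gadd45ab* was also lowest in the libraries numbered 1, at 37.9 and 44.6 CPM, and at 56.3 to 78.5 CPM in the other 4.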
